A study of Mus musculus with 12 samples.

Results

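A set of 10 genes of the fat cell were followed through the 12 libraries: *Adipoq*, *Plin1*, *Plin4*, *Fabp4*, *Lep*, *Cfd*, *Retn*, *Cidec*, *Pck1*, and *Lipe*. They were chosen by their known place in adipocytes and by their measured TPM, which had already been seen in these libraries, and they are 10 of the 54532 genes in the tables. Because the levels helped to choose them, their own values are given as a description. Where the fit's calls among them are counted, the counts stand beside the share of all genes called, belong to that description, and support nothing. Tests are read only for other genes. The lists of those genes were also chosen with earlier results of these data known, so their tests are not independent of these data. Values are TPM, the share of a library's transcripts corrected for transcript length, so that levels of different genes can be set side by side.

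The libraries were made from whole homogenates of distal colon and urinary bladder of 9 male mice, 1 mouse per library and 3 libraries per group. All mice carried floxed *Yap1* and *Wwtr1* (the gene for TAZ), and all received tamoxifen, 1 mg per mouse per day in 5 injections, with tissue taken on day 7 after the first injection at an age of 5 to 7 weeks. Ctrl mice had no Cre, and Y/T KO mice carried Myh11-CreERT2, a tamoxifen-activated Cre driven by the smooth muscle myosin promoter and inserted on the Y chromosome, which is why only males were used. The Ctrl colons were those of mice 788, 786, and 787, and the knockout colons those of mice 759, 783, and 780. The Ctrl bladders were those of mice 784, 785, and 788, and the knockout bladders those of mice 782, 783, and 780. Mice 788, 783, and 780 appear in both tissues. The Cre acts in smooth muscle cells and their descendants, whereas the homogenate holds every cell of the wall together with any fat attached to it. In such bulk samples fewer adipocytes and less RNA per adipocyte cannot be told apart.

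White adipocytes store triglyceride in a single large droplet and release it as fatty acids and glycerol when energy is needed. Their identity depends on the transcription factors PPARγ and C/EBPα, which together switch on genes for the droplet coat, for lipid handling, and for secreted hormones. Visceral organs such as the colon and the bladder carry white fat on their outer surface and in the mesentery.

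The members fall into 3 roles. The secreted products are adiponectin (*Adipoq*), a hormone that raises insulin sensitivity, leptin (*Lep*), which signals fat stores to the brain, adipsin (*Cfd*), the complement factor D protease, and resistin (*Retn*). The droplet proteins are perilipin 1 (*Plin1*), which coats the droplet and guards it from lipases, perilipin 4 (*Plin4*), and *Cidec*, which lets droplets fuse and grow. The lipid metabolism genes are *Lipe*, the hormone-sensitive lipase, *Fabp4*, a carrier of fatty acids in the cytoplasm, and *Pck1*, the phosphoenolpyruvate carboxykinase that supplies glycerol phosphate in fat. Some are made by other cells too. *Fabp4* is also expressed in capillary endothelium and macrophages, *Plin4* and *Lipe* in muscle, and *Pck1* in liver, kidney, and intestinal epithelium.

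The upstream sequences of the members are shown because most members shared 1 pattern over the libraries, and C/EBP factors and the cAMP pathway are known regulators of fat cell genes. RefSeq (GRCm38.p6) gave a start site for 9 of the 10 members, with 11 start sites in all, and *Fabp4* was not matched. In the 250 bases before each start, the C/EBP letters TTGCNNAA were found on either strand in 9.56% of all 32851 promoters of the same length and before 3 of the 11 starts, 1 each of *Lep*, *Plin1*, and *Cidec*. The letters TGACGNNA of a cAMP response element were found in 5.66% of promoters and before 1 of the 11 starts, that of *Pck1*. The DR1 direct repeat, the perfect form of the element bound by PPARγ with RXR, was found in 0.0335% of promoters and before 0 of the 11 starts. The 3 motifs were chosen after the sequences had been seen, and a match is a description of letters, not of binding. The matching upstream stretches and that of *Adipoq*, the gene to which the others are compared, are written 5′ to 3′ in the direction of the gene, with matches in capitals. Counted back from the start site, the C/EBP letters begin at -55 in *Lep*, at -187 and -58 in *Plin1*, and at -198 before 1 of the 2 starts of *Cidec*, and the cAMP response element begins at -93 in *Pck1*. No match overlaps another. The upstream stretch of *Adipoq* holds none of the 3 motifs.
Lep, chr6:29059971-29060220, plus strand: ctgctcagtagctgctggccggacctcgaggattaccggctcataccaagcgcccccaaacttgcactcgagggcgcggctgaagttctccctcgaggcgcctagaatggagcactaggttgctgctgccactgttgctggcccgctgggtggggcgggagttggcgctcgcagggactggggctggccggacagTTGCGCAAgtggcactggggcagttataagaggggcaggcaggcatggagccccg
Plin1, chr7:79732777-79733026, minus strand: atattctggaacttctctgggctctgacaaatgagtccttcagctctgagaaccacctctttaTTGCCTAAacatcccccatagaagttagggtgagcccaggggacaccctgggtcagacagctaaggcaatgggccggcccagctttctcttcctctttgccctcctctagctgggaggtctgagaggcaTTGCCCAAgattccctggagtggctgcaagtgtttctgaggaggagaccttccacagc
Cidec, chr6:113434765-113435014, minus strand: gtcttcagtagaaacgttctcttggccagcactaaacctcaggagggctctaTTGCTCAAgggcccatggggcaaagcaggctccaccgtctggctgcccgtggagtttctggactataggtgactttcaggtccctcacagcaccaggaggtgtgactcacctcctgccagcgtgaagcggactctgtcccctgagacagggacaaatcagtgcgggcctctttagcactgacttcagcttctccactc
Pck1, chr2:173152823-173153072, plus strand: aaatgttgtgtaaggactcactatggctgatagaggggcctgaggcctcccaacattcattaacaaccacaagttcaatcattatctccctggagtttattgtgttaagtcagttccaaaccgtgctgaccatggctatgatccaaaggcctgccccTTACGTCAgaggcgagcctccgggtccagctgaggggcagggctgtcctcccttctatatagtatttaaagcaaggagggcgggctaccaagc
Adipoq, chr16:23146286-23146535, plus strand: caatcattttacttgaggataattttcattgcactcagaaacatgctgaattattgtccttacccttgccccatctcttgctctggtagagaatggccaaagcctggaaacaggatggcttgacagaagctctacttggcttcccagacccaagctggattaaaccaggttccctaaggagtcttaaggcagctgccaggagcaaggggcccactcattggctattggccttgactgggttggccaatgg

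In all, 9 of the 10 members stood higher in every bladder than in every colon. The exception was *Pck1*. In Ctrl mice the mean TPM in bladder was between 4.54-fold (*Lipe*) and 11.4-fold (*Plin4*) that in colon for these 9 members. In the fit over all 12 libraries (limma on log2 of rescaled TPM plus 0.1), the median difference of the members, Ctrl bladder minus Ctrl colon, was 2.98 on the log2 scale, against -0.01 over all 19773 genes tested. With a Benjamini-Hochberg adjusted p of 0.05 as the limit, 9 members were higher and 1 was lower in bladder, where 25.3% of all genes were called higher and 25.1% lower. These counts describe members chosen for their levels, and nothing is read from them. *Lep* passed the filter of this fit through its bladder values. Without Ctrl colon 787 the median fell to 2.25, and without other single libraries it was 2.44 to 3.27.

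**Figure D1:**
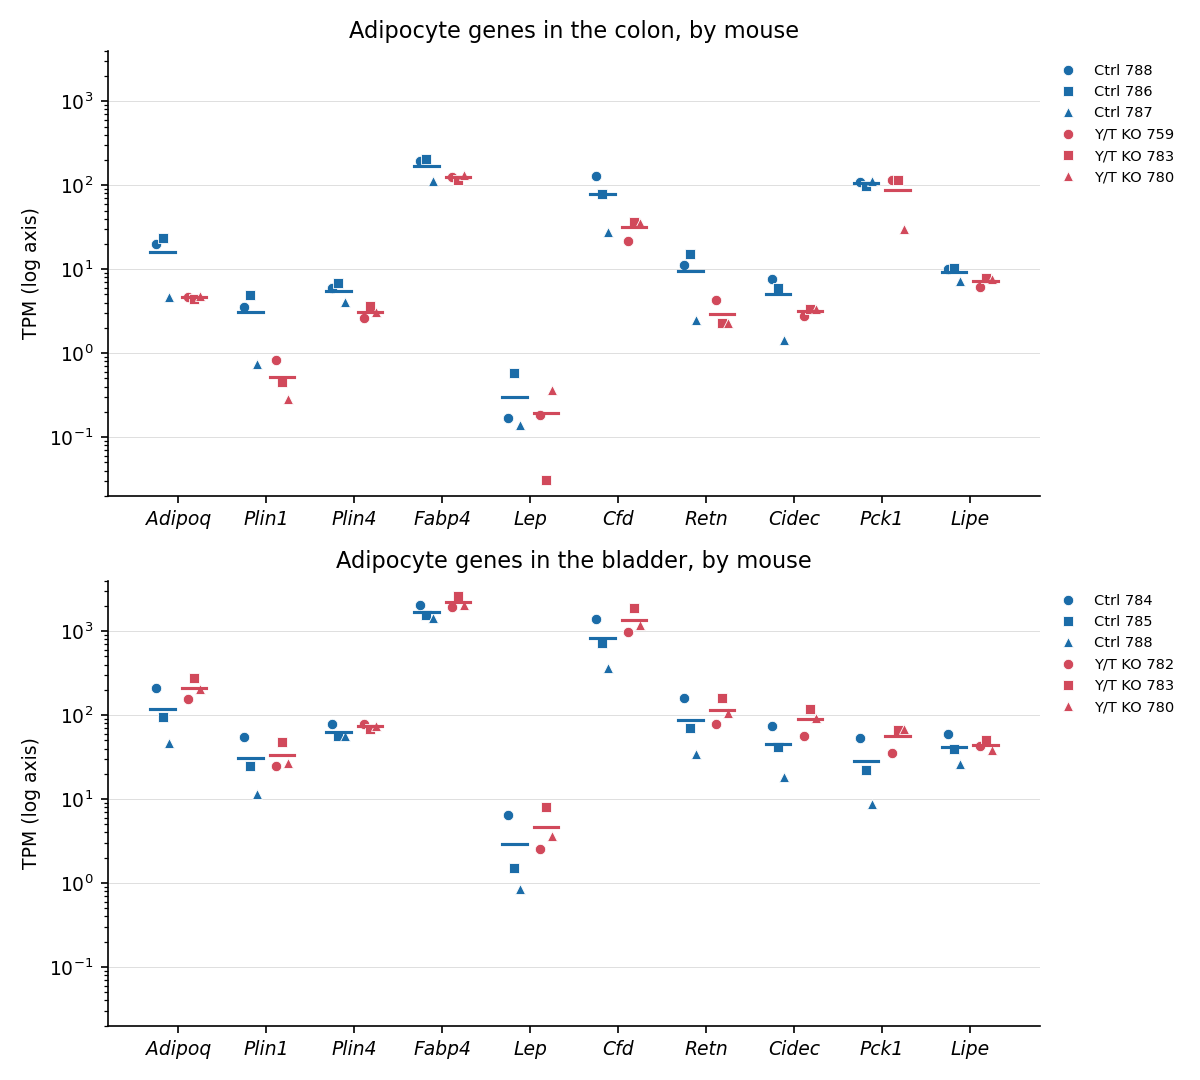
TPM of the 10 adipocyte genes in each of the 6 colon and 6 bladder libraries, on a log axis. Points are single mice (blue, Ctrl; red, Y/T KO; shape, mouse as listed), and short lines are group means. For 9 genes every bladder lies above every colon, and within each tissue the same few mice are high or low for most genes.

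*Fabp4* (ENSMUSG00000062515, chromosome 3, 10204088 to 10208576 of GRCm38, minus strand) had the highest mean of the members in all 4 groups. The Ctrl colons held 196, 203, and 112 TPM (mice 788, 786, and 787) against 125, 116, and 134 TPM in the knockout colons (mice 759, 783, and 780). The Ctrl bladders held 2066, 1541, and 1434 TPM (mice 784, 785, and 788) against 1949, 2625, and 2043 TPM in the knockout bladders (mice 782, 783, and 780). The genotypes overlapped in both tissues, and the lowest bladder was 7.06-fold the highest colon. The groups are given in this order of mice throughout.

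Among the secreted products, *Cfd* (ENSMUSG00000061780, chromosome 10, 79890853 to 79892655, plus strand) followed *Fabp4* in the bladder. Its values were 130, 79.0, and 27.9 TPM in the Ctrl colons against 21.6, 36.9, and 35.8 TPM in the knockout colons. In bladder they were 1391, 722, and 360 TPM in the Ctrl mice against 988, 1886, and 1178 TPM in the knockouts. In the colon, Ctrl mice 788 and 786 were above all others while Ctrl mouse 787 lay among the Y/T KO mice, and in the bladder Ctrl mouse 788 was lowest and Y/T KO mouse 783 highest.

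*Adipoq* (ENSMUSG00000022878, chromosome 16, 23146536 to 23158028, plus strand) was at 19.9, 23.4, and 4.66 TPM in the Ctrl colons against 4.62, 4.45, and 4.75 TPM in the knockout colons. In bladder it was at 212, 94.8, and 46.9 TPM in the Ctrl mice against 154, 276, and 203 TPM in the knockouts. The 3 Y/T KO colons and Ctrl colon 787 thus lay close together, and the remaining Ctrl colons lay far above them. The Ctrl colon mean was 16.0 ± 9.98 TPM (SD, n = 3), against 4.61 ± 0.15 TPM (SD, n = 3) in Y/T KO colon, so that the spread between Ctrl mice was many times that between Y/T KO mice.

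*Retn* (ENSMUSG00000012705, chromosome 8, 3655770 to 3660110, plus strand) stood at 11.1, 15.4, and 2.45 TPM in the Ctrl colons against 4.27, 2.29, and 2.30 TPM in the knockout colons. In bladder it stood at 159, 70.4, and 34.5 TPM in the Ctrl mice against 78.2, 161, and 107 TPM in the knockouts. Ctrl colons 788 and 786 were again highest, with Ctrl colon 787 inside the range of the Y/T KO colons.

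*Lep* (ENSMUSG00000059201, chromosome 6, 29060220 to 29073877, plus strand) was the least abundant member. It was at 0.17, 0.58, and 0.14 TPM in the Ctrl colons against 0.18, 0.03, and 0.36 TPM in the knockout colons, and its coverage over the 6 colons ran from 0.0225 to 0.514 reads per base. It was at 6.51, 1.51, and 0.84 TPM in the Ctrl bladders against 2.54, 7.95, and 3.63 TPM in the knockout bladders. Its colon values were too low to pass the filter of 0.5 TPM in 3 libraries, and no genotype difference is given for it there. Every bladder was above every colon, the lowest bladder by 1.45-fold.

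Among the droplet genes, *Plin1* (ENSMUSG00000030546, chromosome 7, 79720218 to 79732903, minus strand) showed the widest spread of the droplet genes in the colon, 17.4-fold from lowest to highest. It was at 3.59, 4.92, and 0.73 TPM in the Ctrl colons against 0.82, 0.45, and 0.28 TPM in the knockout colons. In bladder it was at 55.4, 24.8, and 11.6 TPM in the Ctrl mice against 24.9, 48.3, and 27.2 TPM in the knockouts. Ctrl colon 787 again lay among the Y/T KO colons, and the bladders of the 2 genotypes overlapped.

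*Plin4* (ENSMUSG00000002831, chromosome 17, 56100591 to 56109803, minus strand) was at 5.91, 6.77, and 4.04 TPM in the Ctrl colons against 2.62, 3.60, and 3.07 TPM in the knockout colons. It was the 1 member of 10 whose colon groups did not overlap, with Y/T KO below Ctrl; 8.28% of the 17500 genes tested in the colon had Y/T KO lower without overlap, and 7.52% had it higher. In bladder it was at 77.7, 56.4, and 56.6 TPM in the Ctrl mice against 78.5, 68.4, and 73.4 TPM in the knockouts, the narrowest range of the members at 1.39-fold. The gene overlaps *Hdgfl2* on the opposite strand, which a stranded library can separate.

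*Cidec* (ENSMUSG00000030278, chromosome 6, 113424634 to 113435760, minus strand) was at 7.64, 5.94, and 1.42 TPM in the Ctrl colons against 2.77, 3.39, and 3.33 TPM in the knockout colons. Here Ctrl colon 787 was lower than every Y/T KO colon. In bladder *Cidec* was at 74.7, 41.3, and 18.3 TPM in the Ctrl mice against 56.0, 119, and 92.7 TPM in the knockouts, with Ctrl bladder 788 lowest.

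*Lipe* (ENSMUSG00000003123, chromosome 7, 25379527 to 25398710, minus strand) was at 10.1, 10.3, and 7.30 TPM in the Ctrl colons against 6.16, 7.91, and 7.58 TPM in the knockout colons. It was at 59.9, 39.4, and 26.4 TPM in the Ctrl bladders against 43.2, 51.1, and 38.4 TPM in the knockout bladders. With *Plin4* and *Fabp4* it varied least between mice of a tissue. It overlaps *4732471J01Rik* on the opposite strand.

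*Pck1* (ENSMUSG00000027513, chromosome 2, 173153048 to 173159273, plus strand) departed from the other members in the colon. It was at 109.6, 98.7, and 113 TPM in the Ctrl colons against 116, 115, and 30.5 TPM in the knockout colons. The Ctrl colons that were high and low in *Adipoq* thus had nearly the same *Pck1*, and 1 colon, that of Y/T KO mouse 780, was far below the other 5. In bladder *Pck1* was at 53.5, 22.1, and 8.73 TPM in the Ctrl mice against 35.8, 66.8, and 68.2 TPM in the knockouts, with Ctrl bladder 788 lowest as for the fat genes. The mean in Ctrl bladder was 0.262 of that in Ctrl colon.

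By mean TPM in Ctrl bladder the order was *Fabp4* (1681 ± 338), *Cfd* (824 ± 523), *Adipoq* (118 ± 84.8), *Retn* (88.0 ± 64.2), *Plin4* (63.6 ± 12.3), *Cidec* (44.8 ± 28.3), *Lipe* (41.9 ± 16.9), *Plin1* (30.6 ± 22.5), *Pck1* (28.1 ± 23.0), and *Lep* (2.95 ± 3.10; SD, n = 3 for each). From *Adipoq* to *Pck1* the neighbours in this order differed by less than the larger of their SDs. In Ctrl colon *Pck1* (107 ± 7.57 TPM; SD, n = 3) came second, after *Fabp4* (170.3 ± 50.7 TPM) and before *Cfd* (78.8 ± 50.8 TPM).

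Most members varied widely between mice of the same group. The within-group SD of log2 values had a median of 0.834 over the 9 members tested in the colon, against 0.286 over all 17500 genes, and 6 of the 9 members exceeded the 90th percentile of all genes (0.711). In the bladder the median was 0.866 over 10 members against 0.242 over all 18237 genes, and 7 members exceeded the 90th percentile of 0.792. *Plin4*, *Lipe*, and *Fabp4* were the exceptions in both tissues, with SDs of 0.263, 0.206, and 0.309 in the colon and 0.216, 0.480, and 0.303 in the bladder.

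The same mice recurred at the ends of the range. Ctrl colons 788 and 786 were both above the other 4 colons for 8 of 10 members, all but *Lep* and *Pck1*. Ctrl colon 787 lay within the range of the 3 Y/T KO colons for 7 members, below it for 2 (*Fabp4* and *Cidec*), and above it for 1 (*Plin4*). Ctrl bladder 788 was the lowest of the 6 bladders for 9 of 10 members, and Y/T KO bladder 783 was the highest for 6. Mouse 788 therefore had one of the highest colons and the lowest bladder for most members, and the other 2 mice that gave both tissues (783 and 780) had low colons and high bladders.

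The likeness of each gene to *Adipoq* was measured as the SD, over the 12 libraries, of its log2 ratio to *Adipoq*. *Adipoq* itself had an SD of 2.27 over these libraries, most of it the difference between tissues. *Retn* (0.29), *Cfd* (0.36), *Cidec* (0.47), and *Plin1* (0.51) kept the most constant ratio, *Plin4* (0.71), *Fabp4* (0.72), and *Lep* (0.83) a less constant one, and *Lipe* (1.20) and *Pck1* (3.02) the least. Within the bladder alone *Pck1* joined the first group, with an SD of 0.27, and within the colon it remained apart, at 1.23. Outside the members, *Mrap* (0.29), *Ankef1* (0.30), *Aqp7* (0.51), *Adig* (0.55), *Slc22a3* (0.56), *Ntrk2* (0.57), *Amy1* (0.59), *Car3* (0.61), *A530016L24Rik* (0.61), and *Slc36a2* (0.62) were the 10 most alike of 19773 genes. *Aqp7* is the glycerol channel of fat cells, *Adig* (adipogenin) a small droplet protein, *Car3* a carbonic anhydrase abundant in fat, and *Mrap* the accessory protein of the corticotropin receptor. *Mrap* had 1.80, 2.19, and 0.42 TPM in the Ctrl colons against 0.47, 0.62, and 0.40 TPM in the knockout colons, with Ctrl colons 788 and 786 highest, as for *Adipoq*. These ratios share the libraries and the denominator, and the list of alike genes is a description.

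The other genes of adipocyte metabolism were tested as 5 lists with 52 genes in all. In Ctrl mice 36 of the 52 were higher in bladder and 7 were lower (limma, adjusted p under 0.05). In the same fit 25.3% of all genes tested were called higher and 25.1% lower, and these shares apply to each list below. The median log2 difference of the 52 was 1.43. Only 47 of the 52 passed the filter in the colon libraries. The others (*Pnpla3*, *Aqp7*, *Ebf2*, *Slc7a10*, and *Tshr*) passed the filter of this fit through their bladder values, where they are high. All of them are among the 36, and nothing is read from their calls. The counts of the lists below include them. The list on fatty acids, which holds none of them, was mostly higher in bladder.

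Of the 14 genes of droplets and lipolysis, 8 were higher and 3 lower in bladder. *Pnpla2*, the triglyceride lipase that acts before *Lipe*, was almost level between the tissues, at 84.9, 77.2, and 87.4 TPM in the Ctrl colons against 126, 93.7, and 89.4 TPM in the Ctrl bladders (log2 difference 0.03, SE 0.18, adjusted p = 0.89, limma). *Pnpla3* differed most of the list, at 0.56, 0.65, and 0.41 TPM in the Ctrl colons against 44.5, 14.4, and 6.11 TPM in the Ctrl bladders (log2 difference 4.41, SE 0.70, adjusted p = 3.0e-04, limma). It passed the filter of this fit through its bladder values, so its p-value is only a description. *Dgat2*, which makes triglyceride, was higher in bladder by 1.67 on the log2 scale (adjusted p = 4.1e-04, limma). *Agpat2* and *Bscl2*, known for inherited loss of body fat, differed by -1.07 and -0.13, of which the former was called (adjusted p = 0.045, limma).

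Of the 13 genes of fatty acid uptake and synthesis, 11 were higher and 1 lower in bladder. *Scd1*, the desaturase that makes oleate, was at 64.3, 127.5, and 76.7 TPM in the Ctrl colons against 994, 310.5, and 197 TPM in the Ctrl bladders (log2 difference 1.94, SE 0.65, adjusted p = 0.030, limma). *Lpl*, which frees fatty acids from lipoproteins, was higher by 2.15 (adjusted p = 4.8e-04, limma), and *Cd36*, a fatty acid transporter also found in endothelium and macrophages, by 1.75 (adjusted p = 0.0033, limma). *Acly*, which supplies acetyl-CoA, was the gene that was lower, by -0.58 (adjusted p = 0.038, limma).

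Of the 6 genes of glycerol and glucose, 4 were higher, with *Aqp7* counted among them, and 0 lower. The higher genes included *Slc2a4*, the insulin-responsive glucose transporter (log2 difference 1.96, adjusted p = 9.3e-07, limma), and *Pdk4*, a brake on pyruvate oxidation (3.64, adjusted p = 1.9e-05, limma). Of the 7 transcription factors, 4 were higher, with *Ebf2* counted among them, and 2 lower. *Pparg* was higher by 0.79 (adjusted p = 0.0017, limma), a smaller difference than that of the members, and *Cebpa* did not pass the test (1.60, adjusted p = 0.063, limma). Of the 12 surface and secreted genes, 9 were higher, with *Slc7a10* and *Tshr* counted among them, and 1 lower. *Car3* was at 85.1, 109.7, and 20.4 TPM in the Ctrl colons against 1267, 932, and 620 TPM in the Ctrl bladders (log2 difference 3.71, adjusted p = 3.5e-04, limma), with Ctrl colon 787 the lowest as for the members. *Ffar4*, a receptor for long-chain fatty acids that is also present in colonic epithelium, was the gene that was lower (-4.26, adjusted p = 1.3e-07, limma).

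**Figure D2:**
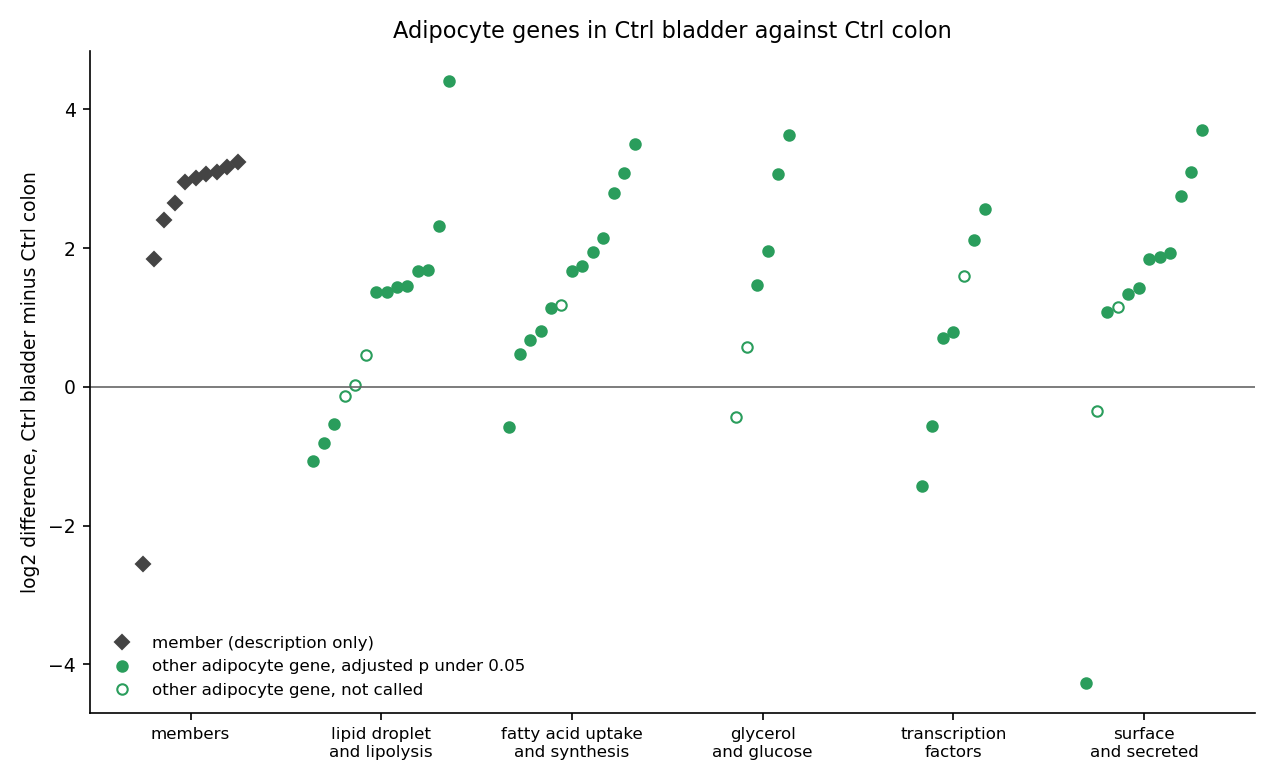
Log2 difference of Ctrl bladder minus Ctrl colon for the 10 members (diamonds, description only) and for the 52 other adipocyte genes in 5 lists (circles), each list sorted by value. Filled circles passed an adjusted p of 0.05 in the limma fit: 36 above 0 and 7 below. The 36 include *Pnpla3*, *Aqp7*, *Ebf2*, *Slc7a10*, and *Tshr*, which passed the filter through their bladder values, and nothing is read from their calls. The member below 0 is *Pck1* and the lowest circle is *Ffar4*.

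Other cells in the homogenate also differed between the tissues, in a fit that called 25.3% of all genes higher and 25.1% lower in bladder. Endothelial genes were higher in Ctrl bladder for 9 of 9, with a summed level of 406 to 421 TPM against 128 to 157 TPM in Ctrl colon. Macrophage genes were higher for 7 of 8 (1970 to 3207 TPM against 955 to 1785 TPM), and fat stroma genes for 5 of 7 tested with 1 lower (4946 to 5293 TPM against 1214 to 1417 TPM; limma, adjusted p under 0.05). Smooth muscle genes were higher for 8 of 8, with a summed level of 35080 to 45670 TPM in Ctrl bladder against 7514 to 8261 TPM in Ctrl colon, and skeletal muscle genes for 3 of 6 (1364 to 1990 TPM against 18.0 to 29.7 TPM; limma, adjusted p under 0.05). The part of these cells in the levels of *Fabp4*, *Cd36*, *Plin4*, and *Lipe* was not tested. The summed level of the 10 members was 1998 to 4156 TPM in Ctrl bladder and 274 to 493 TPM in Ctrl colon.

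Deletion of *Yap1* and *Wwtr1* was then examined. In bladder *Yap1* was at 101, 98.6, and 109.8 TPM in the Ctrl mice against 71.3, 69.4, and 72.1 TPM in the knockouts. In colon it was at 54.9, 52.8, and 45.8 TPM in the Ctrl mice against 44.0, 41.3, and 47.0 TPM in the knockouts, with overlap. *Wwtr1* was on average higher, not lower, in the libraries labelled knockout, with means of 20.4 against 18.5 TPM in colon and 56.2 against 49.1 TPM in bladder, which is not the direction its label gives. The genotypes overlapped in both tissues, at 16.9 to 21.5 TPM in Ctrl and 17.9 to 22.7 TPM in Y/T KO colon, and at 32.5 to 61.6 TPM in Ctrl and 48.3 to 60.9 TPM in Y/T KO bladder. The gene-level values include transcripts of the cells in which Cre does not act, and they do not separate the floxed part of a gene from the rest.

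In the colon the fitted difference, Y/T KO minus Ctrl, was below 0 for all 9 members tested, with a median of -0.77 on the log2 scale against 0.01 over all genes. It ran from -2.07 (SE 0.67) for *Plin1* and -1.44 (SE 0.54) for *Adipoq* to -0.31 (SE 0.55) for *Cidec* and -0.31 (SE 0.20) for *Lipe*. None of the 9 was called (limma, 0 of 9 at an adjusted p under 0.05), where 0.137% of the 17500 genes were called. An unadjusted p under 0.05 was reached by 3 of the 9 members and by 1702 of the 17500 genes (limma). As mean TPM, the Y/T KO colon had 0.288 of the Ctrl level of *Adipoq*, 0.168 of *Plin1*, 0.307 of *Retn*, 0.399 of *Cfd*, and 0.734 of *Fabp4*.

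The size of the colon difference turned on which Ctrl mice were counted. Without Ctrl colon 787, *Adipoq* alone of the members passed the limit, with a difference of -2.13 (SE 0.21), and the median of the members was -0.998. Without Ctrl colon 788 the median was -0.56, no member was called, and *Cidec* turned to 0.16. Without Y/T KO colon 780, *Pck1* turned to 0.13.

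In the bladder the fitted difference was above 0 for all 10 members, with a median of 0.73 against 0.00 over all genes. It ran from 1.32 (SE 0.69) for *Pck1*, 1.15 (SE 0.58) for *Cidec*, and 1.06 (SE 0.58) for *Adipoq* down to 0.22 (SE 0.15) for *Plin4* and 0.15 (SE 0.32) for *Lipe*. None of the 10 was called (limma, 0 at an adjusted p under 0.05), where 0.302% of the 18237 genes were called. An unadjusted p under 0.05 was reached by 0 of the 10 members and by 2707 of the 18237 genes (limma). The genotypes overlapped for all 10 members, whereas 10.4% of genes had Y/T KO higher without overlap. Without Ctrl bladder 784, the Ctrl mouse with the highest values, the median was 1.28, and without Ctrl bladder 788, the lowest, it was 0.31, with *Plin1* at -0.24 and *Lipe* at -0.17.

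**Figure D3:**
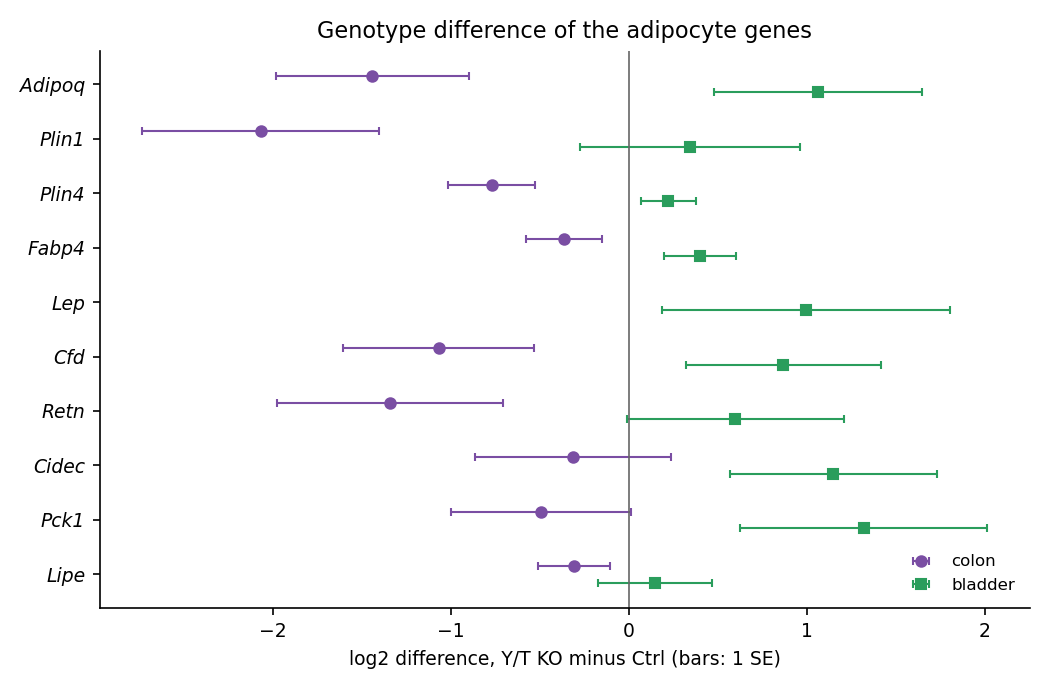
Fitted log2 difference, Y/T KO minus Ctrl, of each adipocyte gene in the colon (circles) and the bladder (squares), with bars of 1 SE from the limma fit. All 9 colon values lie below 0 and all 10 bladder values above it, with bars that cross 0 for *Cidec* and *Pck1* in the colon and for *Plin1*, *Retn*, and *Lipe* in the bladder. *Lep* has no colon value because it did not pass the filter.

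The genotype difference in bladder minus that in colon was above 0 for all 10 members, from 2.53 (SE 0.89) for *Adipoq* to 0.48 (SE 0.39) for *Lipe*, with a median of 1.66. None was called (limma, 0 of 10 at an adjusted p under 0.05), where 0.0607% of 19773 genes were called. An unadjusted p under 0.05 was reached by 5 of the 10 members and by 2349 of the 19773 genes (limma). The difference between the tissues is made of the 2 differences above and uses the same libraries.

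The 52 other adipocyte genes did not pass the test of genotype in either tissue. In the colon 0 of 47 tested were called, with 19 above and 28 below 0 and a median of -0.08 (limma; 5 at an unadjusted p under 0.05). In the bladder 0 of 52 were called, with 33 above and 19 below 0 and a median of 0.17 (5 at an unadjusted p under 0.05). In the test of the difference between the tissues 0 of 52 were called (9 at an unadjusted p under 0.05). Over all genes an unadjusted p under 0.05 was reached by 1702 of 17500 in the colon and 2707 of 18237 in the bladder (limma). In the test of the difference it was reached by 2349 of 19773. In both tissues the medians of the other adipocyte genes lay closer to 0 than those of the members (-0.77 and 0.73). The same fits called 0.137% of all genes in the colon and 0.302% in the bladder. They called 0 of 8 smooth muscle genes in each tissue, and *Yap1* in bladder stayed above the limit (adjusted p = 0.063, limma). The authors, with DESeq2 on read counts, listed *Acta2*, *Actg2*, and *Tagln* as lower in both tissues. The 0 calls therefore do not show that genotype has no effect on the 52 genes. *Car3* had the largest negative value in the colon (-1.57, SE 0.57; adjusted p = 0.49, limma), and *Cebpa* the largest positive one (1.53, SE 0.74; adjusted p = 0.57, limma). *Cebpa* stood at 31.6, 4.33, and 5.69 TPM in the Ctrl colons against 24.4, 30.3, and 24.2 TPM in the knockout colons. Ctrl mouse 788 was thus with the knockouts for *Cebpa* and apart from them for *Adipoq*, and without it *Cebpa* was called (2.43, SE 0.25; adjusted p = 0.026, limma).

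Markers of other cells were also followed through the same libraries. In the bladder all 6 skeletal muscle genes tested were above 0 in Y/T KO, with 0 called and a summed level of 1364 to 1990 TPM in Ctrl and 1265 to 6735 TPM in Y/T KO. *Mylpf*, the myosin light chain of fast skeletal muscle, was at 165, 1.67, and 2.57 TPM in the Ctrl mice against 3.53, 1667, and 1410 TPM in the knockouts, so that bladders 784, 783, and 780 held this transcript and the other 3 held little of it. *Myh4* and *Myh1* divided in the same way. The rest of the list set bladder 784 less far apart from bladders 785, 788, and 782. There *Acta1* was at 1331 TPM against 915 to 1137 TPM, *Tnnt3* at 294 against 222.5 to 277, and *Ckm* at 138 against 82.0 to 102.5. Bladders 783, 780, and 784 were also the 3 with the most *Adipoq*. All 6 mesothelial genes were below 0 in Y/T KO bladder, with 0 called and summed levels of 166 to 329 TPM in Ctrl and 51.2 to 277 TPM in Y/T KO. Endothelial genes summed to 406 to 421 TPM in Ctrl and 440 to 458 TPM in Y/T KO bladder, and macrophage genes to 1970 to 3207 TPM and 2161 to 2970 TPM, with 0 called in both lists. In the bladder fit (limma) 2707 of all 18237 genes had an unadjusted p under 0.05. All 8 smooth muscle genes were below 0 in Y/T KO bladder, with 0 called (5 at an unadjusted p under 0.05, limma). Their summed levels were 35080 to 45670 TPM in Ctrl and 16710 to 30690 TPM in Y/T KO, lowest in bladders 783 and 780. The part of these cells in the bladder values of the members was not tested.

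In the colon, 6 of 7 pancreatic acinar genes tested were below 0 in Y/T KO, with 0 called and 6 at an unadjusted p under 0.05. In that fit (limma) 1702 of all 17500 genes had an unadjusted p under 0.05. *Prss2*, a trypsinogen, was at 9.67, 1.26, and 20.7 TPM in Ctrl and at 0 in all 3 Y/T KO colons. *Cela1*, which is listed among acinar genes but was high in every colon (514 to 770 TPM), carried most of the summed level. Ctrl colon 787, with the most *Prss2*, had the *Adipoq* of a Y/T KO colon, and Ctrl colon 786, with the most *Adipoq*, had the least *Prss2* of the Ctrl colons. Macrophage genes summed to 955 to 1785 TPM in Ctrl and 1357 to 1680 TPM in Y/T KO colon, and endothelial genes to 128 to 157 TPM and 156 to 176 TPM, with 0 called in both lists. Smooth muscle genes were below 0 for 8 of 8 in the colon too, with 0 called (5 at an unadjusted p under 0.05, limma), and summed to 7514 to 8261 TPM in Ctrl and 4936 to 5808 TPM in Y/T KO colon. The size factors, which measure the shift of all genes in a library, stayed between 0.966 and 1.11 within the tissues.

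Levels relative to *Adipoq* set the members against each other within a library. The ratios described here were chosen after their values were seen. In the bladder *Plin1* had 26.2, 26.2, and 24.7 TPM per 100 TPM of *Adipoq* in Ctrl mice 784, 785, and 788, although *Adipoq* itself differed by more than 4-fold between them. In Y/T KO mice 782, 783, and 780 the ratio was 16.2, 17.5, and 13.5. *Retn* had 75.2, 74.3, and 73.5 TPM per 100 TPM of *Adipoq* in Ctrl and 50.9, 58.6, and 52.6 in Y/T KO. Both ratios were thus nearly constant in the Ctrl bladders and lower in each Y/T KO bladder.

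The ratio was lower without overlap for 3 of 9 members in the bladder, *Plin1*, *Retn*, and *Lipe*, where 6.82% of the 18236 genes compared with *Adipoq* had it lower without overlap. For *Lipe* the nearest values of the groups were 28.3 in Ctrl and 28.1 in Y/T KO. *Cfd* (657, 762, and 767 in Ctrl and 643, 684, and 582 in Y/T KO) and *Cidec* (35.3, 43.6, and 39.0 in Ctrl and 36.5, 43.2, and 45.8 in Y/T KO) overlapped between genotypes. *Pck1* overlapped too, at 25.3, 23.4, and 18.6 in Ctrl and 23.3, 24.2, and 33.7 in Y/T KO.

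These counts depended on the member used as denominator. The number of members lower without overlap was 3 over *Cidec*, 2 over *Cfd* and over *Pck1*, 1 over *Retn*, and 0 over *Plin1*, *Plin4*, *Fabp4*, *Lep*, and *Lipe*. Over *Plin1*, *Retn*, and *Lipe*, 5, 4, and 2 members were higher without overlap, where 0.614%, 0.422%, and 1.35% of all genes were. The share of all genes that was lower ranged from 0.993% over *Plin1*, 1.17% over *Lep*, 1.66% over *Retn*, and 2.67% over *Lipe* to 5.21% over *Cfd*, 6.57% over *Pck1*, 9.20% over *Cidec*, 12.4% over *Plin4*, and 15.5% over *Fabp4*.

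Among the other adipocyte genes the ratio was lower without overlap in Y/T KO bladder for 13 of 52, where 6.82% of all genes were lower. It was higher without overlap for 0 (0.208% of all genes). The count of lower genes too depended on the denominator. It was 18 over *Cidec* (9.20% of all genes lower), 16 over *Pck1* (6.57%), 13 over *Cfd* (5.21%), and 11 over *Fabp4* (15.5%). It was 5 over *Plin4* (12.4%), *Lep* (1.17%), and *Lipe* (2.67%), 4 over *Retn* (1.66%), and 2 over *Plin1* (0.993%). Over *Plin4* and *Lipe* 3 genes were higher without overlap (1.99% and 1.35% of all genes), and over *Plin1* 2 were (0.614%). With *Adipoq* as denominator, the genes lower among the 13 of fatty acid uptake and synthesis were 5, *Fasn*, *Acaca*, *Acly*, *Scd1*, and *Thrsp*, of which the first 4 encode enzymes of fatty acid synthesis and *Thrsp* a protein that stimulates it. *Elovl6*, *Me1*, and *Acacb*, from the same route, overlapped between genotypes. *Scd1* had 470, 328, and 420 TPM per 100 TPM of *Adipoq* in Ctrl and 256, 278, and 92.8 in Y/T KO. *Fasn*, the fatty acid synthase, had 62.6, 62.6, and 83.1 in Ctrl and 32.2, 26.5, and 11.9 in Y/T KO. *Acaca*, the acetyl-CoA carboxylase, had 18.3, 24.7, and 46.5 in Ctrl and 10.1, 8.46, and 8.55 in Y/T KO. Among the Ctrl bladders the *Acaca* ratio rose as *Adipoq* fell (212, 94.8, and 46.9 TPM). *Thrsp* had 62.9, 50.3, and 54.9 in Ctrl and 32.7, 35.1, and 14.8 in Y/T KO. *Dgat2*, *Agpat2*, and *Pnpla3*, which build or remodel glycerolipids, were lower in the same way.

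As TPM, without the ratio, none of these genes was called in the bladder: the difference was -0.03 (SE 0.78) for *Scd1*, -0.61 (SE 0.60) for *Fasn*, and -0.55 (SE 0.29) for *Acaca* (adjusted p = 0.99, 0.68, and 0.42, limma). With *Cfd* in place of *Adipoq* the same 5 fatty acid genes were lower without overlap (5.21% of all genes), with *Fabp4* 4 were, of which 2 were the same (15.5%), and with *Plin1* 2 were, *Fasn* and *Acaca* (0.993%). The uptake genes *Lpl* and *Cd36* overlapped with *Adipoq* as denominator, at 113, 144, and 204 for *Lpl* in Ctrl and 116, 94.3, and 109 in Y/T KO.

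**Figure D4:**
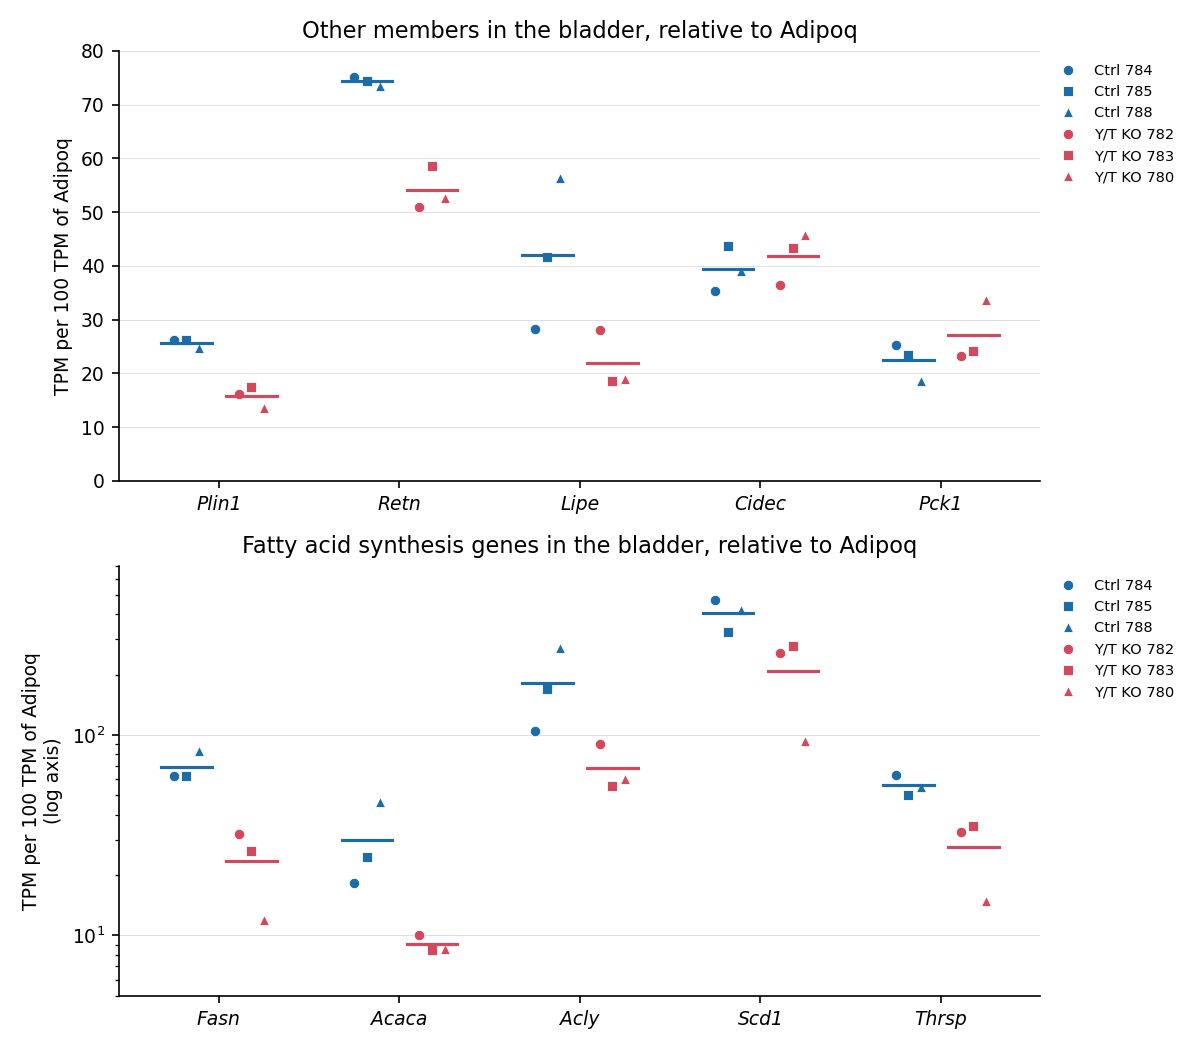
TPM per 100 TPM of *Adipoq* in the 6 bladder libraries for 5 members (upper panel, linear axis from 0) and for 5 fatty acid synthesis genes (lower panel, log axis). Points are single mice (blue, Ctrl; red, Y/T KO; shape, mouse as listed), and short lines are group means. For *Plin1*, *Retn*, *Lipe*, and the 5 lower genes every Y/T KO point lies below every Ctrl point, with *Lipe* separated by 28.3 against 28.1.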

How the data were processed

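RNA of distal colon and bladder was sequenced from stranded, poly(A)-selected libraries, 1 mouse each, and groups were taken from the sample labels. The authors aligned reads to GRCm38 with HISAT2 and quantified genes with StringTie (versions not given in the sources used here), and deposited TPM, FPKM, and coverage per gene. The authors tested with DESeq2 on read counts, which were not used here. Rows of 1 gene ID were summed. The ratio of the deposited coverage to the deposited FPKM gave 2.80 to 3.94 gigabases aligned per library, and the counting error of single values is unknown.

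Size factors (median of ratios) were applied to TPM, computed over the 6 libraries of a tissue for genotype and over 12 for tissue. Genes at 0.5 TPM or more in at least 3 libraries were kept, and log2(TPM + 0.1), which understates changes of low genes, was fitted with limma 3.58.1 in R 4.3.3 (trend and robust options, two-sided, Benjamini-Hochberg, adjusted p under 0.05). P-values set a difference against the spread between libraries of a group, which limma moderates with that of other genes. For genotype within a tissue each library is 1 mouse. The main fits over 12 libraries treat them as separate, although 3 mice gave both tissues. Single values and means are TPM as deposited. The scripts were tested on simulated data. No transcript of a member had a near-identical copy in another gene (blastn, 97% identity over 100 bases).

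The members and all lists were chosen with earlier results of these data known. Besides members and floxed genes, named genes were taken from the 4 genes of a list with the highest mean TPM, called adipocyte-related genes (the 8 with the largest difference in a fit), and the 10 genes most like *Adipoq*. *Fasn*, *Acaca*, *Thrsp*, *Elovl6*, *Me1*, *Acacb*, *Klf15*, *Slc7a10*, *Ebf2*, *Tshr*, *Ucp1*, *Cidea*, *Zic1*, *Lhx8*, *Myh4*, and *Myh1* were named after their values were seen. Alternatives are given in the closing section. Figures were made with Python 3.11.15 and matplotlib 3.10.9.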

Additional observations from a re-analysis of the deposited data

How the results depend on the processing

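With a pseudocount of 1 TPM, no filter, TPM or FPKM as deposited, all 12 libraries in 1 fit, or eBayes without its options (which leaves the medians as they are), the medians of the members kept their direction and moved by less than the spread between mice, and the count of other adipocyte genes called stayed at 0 for genotype and for the difference between tissues and within 1.5 times of 43 between Ctrl tissues. Leaving out each library gave 0 to 1 gene called in the colon (*Cebpa* without Ctrl colon 788, *Car3* without Ctrl colon 787), 0 to 1 in the bladder (*Klf15* without Ctrl bladder 784, log2 difference 2.04, adjusted p = 0.0496, limma), 0 to 1 for the difference between tissues (*Slc7a10* without Ctrl colon 787), and 34 to 44 between Ctrl tissues. The median of the members ran from -0.998 to -0.562 in the colon, from 0.31 to 1.28 in the bladder (1.28 without Ctrl bladder 784), and from 2.25 to 3.27 between Ctrl tissues (2.25 without Ctrl colon 787). With the mouse as a replicate block for the pairing of the 3 mice that gave both tissues (within-mouse correlation 0.0514), 43 and 0 of the other adipocyte genes were called between Ctrl tissues and for the difference between tissues, the same counts as without it. Over all genes the block gave 4990 lower and 5038 higher in Ctrl bladder, against 4959 and 5004 without it. With 1 library left out, 4 values of single members changed sign, those of *Cidec* (0.16 without Ctrl colon 788) and *Pck1* (0.13 without Y/T KO colon 780) in the colon and of *Plin1* (-0.24) and *Lipe* (-0.17) in the bladder without Ctrl bladder 788. None did with a pseudocount of 1 TPM, with TPM as deposited, or with FPKM as deposited, where *Plin1* did not pass the filter in the colon. The other settings were not examined for single members. Depth limits the genes of low level, such as *Lep* in the colon, and the ratios to *Adipoq* were compared in the main setting and with other members as denominator.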

Other observations

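Of 12 genes of brown fat, 8 passed the filter over all libraries, and *Zic1* and *Lhx8*, which mark the brown lineage, did not rise above 0.063 TPM in any library. *Ucp1*, the uncoupling protein of thermogenic fat, was listed at 0 in all 6 colons. Its Ctrl bladders held 4.40, 1.42, and 0.12 TPM (mice 784, 785, and 788) against 1.38, 0.11, and 0.18 TPM in the knockouts (mice 782, 783, and 780). It thus did not follow *Adipoq*, which was highest in bladder 783. *Cidea*, a relative of *Cidec* that is high in brown fat, was at 8.74, 5.39, and 2.04 TPM in the Ctrl bladders against 13.5, 12.7, and 12.5 TPM in the knockout bladders, without overlap (log2 difference 1.46, SE 0.51, adjusted p = 0.27, limma). In the bladder 10.4% of the 18237 genes tested had Y/T KO higher without overlap. *Cox7a1* and *Cox8b*, which are also muscle genes, were higher in the 3 bladders with *Mylpf* than in the other 3 bladders: *Cox8b* was at 26.3 TPM in bladder 784, 46.3 in bladder 783, and 65.6 in bladder 780, against 2.11 to 7.46 TPM in the others. *Cox7a1* was far higher in the colons, at 216 to 276 TPM in all 6, than in the bladders, which reached at most 49.0 TPM.

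Of 14 relatives of the members, 6 were higher and 4 lower in Ctrl bladder than in Ctrl colon (limma, adjusted p under 0.05). In that fit 25.3% of all genes were called higher and 25.1% lower. *Plin5* passed the filter of the fit through its bladder values, and *Cideb* and *Retnlb* through their colon values. Nothing is read from the calls of these genes. *Retnla*, a relative of *Retn* made by fat and by alternatively activated macrophages, was at 865, 639, and 110.3 TPM in the Ctrl bladders against 1635, 1054, and 2622 TPM in the knockout bladders (log2 difference 2.07, SE 0.85; adjusted p = 0.34, limma). Its 3 Y/T KO values were above the Ctrl values, as was so for 10.4% of the 18237 genes tested in the bladder. The highest *Retnla* was in bladder 780, not in bladder 783 as for *Retn*. *Retnlb*, the goblet cell relative, was listed at 0 in all bladders and was at 1.44, 1.36, and 4.55 TPM in the Ctrl colons against 11.4, 1.44, and 93.5 TPM in the knockout colons, the last in mouse 780, whose colon also had the lowest *Pck1*. *Plin2* and *Plin3*, perilipins of most cells, were almost level between the Ctrl tissues (log2 difference 0.02 and -0.04; adjusted p = 0.93 and 0.80, limma). *Cideb* and *Fabp2*, epithelial relatives of *Cidec* and *Fabp4*, were lower in Ctrl bladder by -7.81 and -7.61 on the log2 scale (adjusted p = 1.1e-05 and 1.7e-06, limma), and *Fabp5* was higher by 2.36 (adjusted p = 3.5e-06, limma). The p-value of *Cideb*, which passed the filter through its colon values, is only a description. None of the 14 relatives was called between genotypes in either tissue (limma, 0 of 12 tested in each, with 2 in each at an unadjusted p under 0.05). Over all genes, 1702 of 17500 in the colon and 2707 of 18237 in the bladder had such an unadjusted p.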
